A study of Mus musculus and Homo sapiens with 9 samples.

Results

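The long noncoding RNA genes Snhg15, Trp53cor1 (lincRNA-p21) and Pvt1 of the mouse were described here by the binding of p53 and of thymine DNA glycosylase (TDG) along them. They were chosen from the 2 peak lists themselves. A p53 or TDG peak was assigned to a gene where its summit lay inside the RefSeq gene or within 1 kb of either end. By this rule 25 of 17447 genes that were neither protein-coding nor pseudogenes held a p53 summit (0.143%), and these 3 are among them. Such genes are called noncoding genes here. The p53 peaks chose the genes, so their presence is a description and was not tested.

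The study used chromatin immunoprecipitation and sequencing (ChIP-seq). Both libraries used came from B16, a mouse melanoma line, with an HA tag knocked into the Tdg gene. A p53 antibody gave the p53 list of 126 peaks, and an HA antibody gave the list of 3410 peaks called TDG peaks here. Each list stands for 1 library with no replicate. The labels name no treatment for these cells and do not say whether they are 1 clone. The other 7 samples were not analysed here: input, IgG, the HA antibody in untagged B16 cells, the p53 antibody in Trp53 knockout B16 cells, and 3 samples of the human lung cancer line H1299 with FLAG-tagged TDG. Whether any peak depends on the tag or on p53 was therefore not tested.

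p53 is a transcription factor that is stabilised by DNA damage and binds a DNA element made of a pair of 10-base motifs. Among its transcripts are noncoding RNAs, some of which act on the gene next to them. Trp53cor1 lies upstream of Cdkn1a, the gene for the cell cycle inhibitor p21, and is induced by p53 in mouse cells. Pvt1 lies downstream of the oncogene Myc. In mouse cells a Pvt1 isoform that starts at a p53 site has been reported to lower Myc transcription. Snhg15 is a host gene of small nucleolar RNAs, which guide the chemical modification of other RNAs. TDG excises thymine from G·T mismatches and oxidised methylcytosine from DNA, and it is known for its role at CpG-rich promoters.

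Sequences were taken from the RefSeq promoter table of GRCm38.p6. It shares its coordinates with mm10, the build of the peaks. The table gives 300 bases for each start, from 250 before it to 50 after, for 32851 starts. Of the 3 genes it matched Snhg15. It did not hold the DNA under the p53 peaks of the 3 genes, which was therefore not scanned for p53 elements. The Snhg15 promoter is printed because the p53 peak with the highest fold lies inside the gene and not in it. The upstream 250 bases of both Cdkn1a starts are printed because they are the closest sequences to Trp53cor1 with a peak of either kind. In the Snhg15 promoter (chr11:6528711-6529010, minus strand) the capitals mark TGACGTCA, the cAMP response element. In the first Cdkn1a promoter (chr17:29090729-29090978, plus strand) they mark the best p53 element without a spacer, and in the second (chr17:29093519-29093768, plus strand) they mark each CG.

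Snhg15 promoter: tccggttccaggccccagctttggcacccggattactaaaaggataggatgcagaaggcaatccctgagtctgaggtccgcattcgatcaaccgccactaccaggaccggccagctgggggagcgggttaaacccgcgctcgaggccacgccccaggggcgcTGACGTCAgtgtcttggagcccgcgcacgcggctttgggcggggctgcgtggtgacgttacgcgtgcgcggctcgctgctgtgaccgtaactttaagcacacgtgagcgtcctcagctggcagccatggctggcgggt
Cdkn1a promoter with the p53 peak: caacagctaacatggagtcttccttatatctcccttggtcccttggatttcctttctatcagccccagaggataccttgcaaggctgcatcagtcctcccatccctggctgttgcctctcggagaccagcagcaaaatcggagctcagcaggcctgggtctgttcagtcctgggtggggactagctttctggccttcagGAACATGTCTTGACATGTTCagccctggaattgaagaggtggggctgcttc
Cdkn1a promoter with the TDG peak: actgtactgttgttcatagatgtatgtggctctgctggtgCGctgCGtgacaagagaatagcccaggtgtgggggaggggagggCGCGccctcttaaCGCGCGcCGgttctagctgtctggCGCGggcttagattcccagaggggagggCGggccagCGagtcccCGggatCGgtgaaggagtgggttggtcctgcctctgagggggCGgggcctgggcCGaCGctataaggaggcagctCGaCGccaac

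Each of the 3 genes held exactly 1 p53 peak. The p53 fold enrichment, the authors' ratio of the summit to the local background, was 73.4 at Snhg15, 26.2 at Trp53cor1 and 13.4 at Pvt1. These were places 1, 24 and 65 of the 126 p53 peaks, and 5.43, 1.94 and 0.993 times the list median of 13.5. That median takes in 22 peaks with a local background of 10 or more scaled reads and 8 peaks on unplaced sequence. The reads at the summit, recovered from the deposited fold and p, were 292 at Snhg15 (95% Poisson interval 259 to 327), 99 at Trp53cor1 (80.5 to 121) and 50 at Pvt1 (37.1 to 65.9). The 3 intervals, which cover counting error only, did not overlap. The local background was nearly the same for all 3, at 2.17, 2.03 and 2.03 scaled reads, so the order of the folds is that of the summit reads. The value of 2.03 was shared by 67 of the 126 peaks and was taken as the genome-wide background, so it is not particular to these genes. By fold enrichment the p53 library thus had its highest peak at Snhg15. By summit reads alone, peaks over a higher local background stood above it, such as a pair at AY036118 with 356 and 396 reads.

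**Figure D1:**
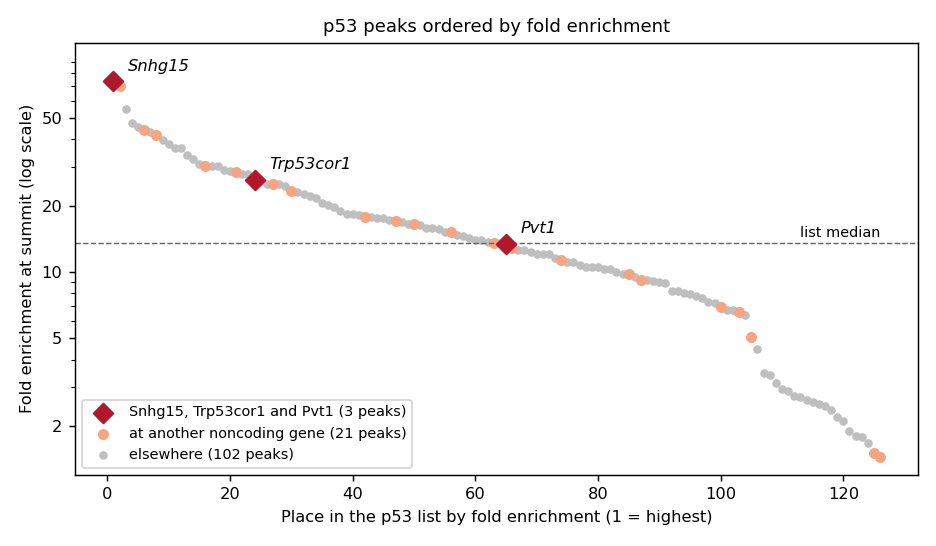
The 126 p53 peaks are ordered from left to right by fold enrichment at the summit, on a log scale, with the peaks at Snhg15, Trp53cor1 and Pvt1 as diamonds and those at other noncoding genes as orange points. Snhg15 stands first at 73.4-fold, Trp53cor1 lies at 26.2-fold and Pvt1 lies just under the list median at 13.4-fold.

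TDG had 1 peak at Trp53cor1, 1 at Pvt1 and none at Snhg15. For comparison, 634 of 17447 noncoding genes (3.63%) and 3237 of 21887 protein-coding genes (14.8%) held a TDG summit by the same rule. The TDG fold enrichment was 6.51 at Trp53cor1, from 24 reads at the summit (interval 15.4 to 35.7), and 6.25 at Pvt1, from 23 reads (14.6 to 34.5). The intervals overlapped almost fully. Both were near the TDG list median of 5.74, at 1.14 and 1.09 times it. The lower and upper quartiles of fold were 7.96 and 22.4 in the p53 list and 4.95 and 6.77 in the TDG list. Both TDG folds and the p53 fold of Pvt1 lay between the quartiles of their own list. The p53 folds of Snhg15 and Trp53cor1 lay above the upper quartile.

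**Figure D2:**
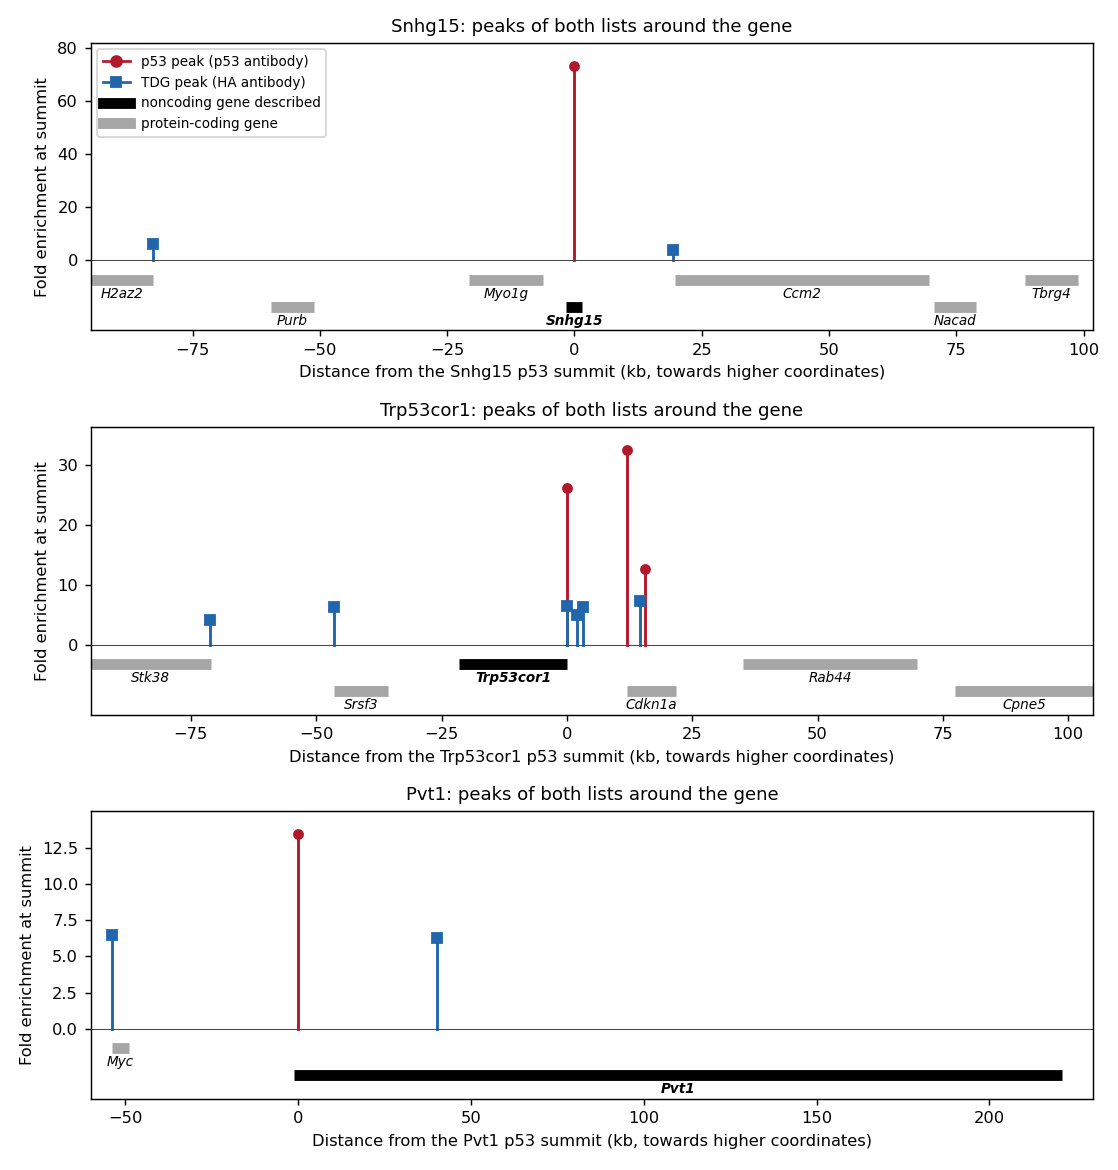
The stems show p53 (red circles) and TDG (blue squares) peaks around Snhg15, Trp53cor1 and Pvt1, with the fold enrichment as height, each list on its own scale, against the distance in kb from the gene's p53 summit. Black bars are the described genes and grey bars protein-coding genes, and only at Trp53cor1 do a p53 and a TDG peak stand at the same place.

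Snhg15 (mm10, chromosome 11, 6525591 to 6528760, 3170 bases) has its RefSeq start at the upper end, since the promoter table puts it on the minus strand. Its p53 peak (6526781 to 6527572) was 792 bases wide, and the −log10 q of 365 was the next to highest of the list. The summit lay in the gene body, 1573 bases after the start and 1596 bases from the other end. An annotated small nucleolar RNA, LOC115487884 (6528033 to 6528165), lies within Snhg15, 846 bases from the summit, and so counts by the rule as a further gene with this peak. The peak did not reach the printed promoter. A TDG summit lay in 1679 of the 32851 promoters of the table. The Snhg15 promoter had no TDG peak and held 29 CG pairs, more than 87.1% of all promoters in the table. Its best match to the p53 consensus without a spacer had 5 mismatches of 20 bases, which is the commonest value over all promoters. The capital TGACGTCA ends 81 bases before the start. It was picked after the sequence had been read and was found, on either strand, in 588 of the 32851 promoters (1.79%).

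The nearest protein-coding gene to the Snhg15 summit was Myo1g, 6227 bases away, which encodes a class I myosin of blood cells. Neither list had a peak at Myo1g. On the other side, Ccm2, which encodes a scaffold protein of blood vessel integrity, held a TDG peak at 3.86-fold with 24 reads over a local background of 5.00 scaled reads. Its summit lay 227 bases outside the lower end of Ccm2 and 17900 bases outside Snhg15, and was the nearest TDG peak to it. H2az2, which encodes a histone H2A.Z variant, held the next one at 6.03-fold, 152 bases inside its upper end and 81232 bases from Snhg15. The other coding genes within 100 kb, Purb, Nacad and Tbrg4, had no peak of either list. No other p53 peak lay within 100 kb, and the nearest was 3332223 bases away. The p53 peak of Snhg15 therefore stood alone.

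Trp53cor1 (chromosome 17, 29057474 to 29079126, 21653 bases) carried both proteins at its upper end, the end that faces Cdkn1a. The p53 peak (29078888 to 29079200) had its summit 77 bases inside that end and a −log10 q of 87.6. The TDG peak (29078956 to 29079224) had its summit 14 bases inside it and a −log10 q of 9.87. The peaks shared 245 bases, of 313 bases of the p53 peak and 269 of the TDG peak, and the summits were 63 bases apart. No other p53 peak of the 3 genes overlapped a TDG peak. Just beyond the 1 kb limit lay a pair of TDG peaks between Trp53cor1 and Cdkn1a, at 4.95-fold with 18 reads, 1760 bases outside the gene, and at 6.25-fold with 23 reads, 3017 bases outside it.

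Cdkn1a (29090979 to 29100722) begins 11853 bases from Trp53cor1, with its RefSeq starts on the plus strand. The p53 peak had 99 reads at Trp53cor1 (interval 80.5 to 121) and 123 reads at the first Cdkn1a promoter (102 to 147), where the fold was 32.5. These intervals overlapped. Inside Cdkn1a lay a further p53 peak at 12.6-fold with 47 reads. The summit of the promoter peak was base 16 of the capital element printed above, which matched the p53 consensus with 1 mismatch and no spacer. A match with at most 1 mismatch was found in 29 of all 32851 promoters (0.0883%). The second Cdkn1a start, 2790 bases further along, carried the TDG peak of the gene, at 7.23-fold with 28 reads. The p53 peak inside Cdkn1a had its summit 735 bases after this start and 774 bases from the TDG summit, and it did not overlap the TDG peak. That peak covered all 250 printed bases. The first Cdkn1a promoter held 2 CG pairs over its full 300 bases and the second held 23.

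Of the other coding genes within 100 kb of Trp53cor1, Srsf3 and Stk38 held a TDG peak and none held a p53 peak. At Srsf3, the gene of a splicing factor of the SR family, TDG reached 6.25-fold with 23 reads, 107 bases outside the lower end, and at Stk38, the gene of a kinase of the NDR family, 4.12-fold with 22 reads, 51 bases inside the upper end. The Srsf3 promoter held 42 CG pairs and the Stk38 promoter 24. Near Snhg15, the Purb and Tbrg4 promoters held 39 and 27, and those genes had no peak of either list. Myo1g and Nacad, also without a peak, held 2 and 6. The Ccm2 promoter with the TDG summit held 30, and that of H2az2, which held a TDG peak, 27. Over all 32851 promoters the median was 7 CG pairs, and over the 1679 with a TDG summit inside it was 25. A link between CG pairs and TDG peaks was not tested. Kctd20, Rab44 and Cpne5 had no peak of either list. Within 100 kb of Trp53cor1 there were 3 p53 peaks and 6 TDG peaks in all, against 1 and 2 around each of the other genes.

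Pvt1 (chromosome 15, 62037986 to 62260215) is the longest of the 3, at 222230 bases. Its p53 peak (62039105 to 62039401, −log10 q of 31.2) had its summit 1230 bases inside the lower end, the end that faces Myc, or 0.553% of the way along the gene. The TDG peak (62079243 to 62079779, −log10 q of 9.03) lay deeper, 41376 bases inside that end, and its summit was 40146 bases from the p53 summit. The peaks therefore shared no sequence. A pseudogene, Macroh2a3, lies within Pvt1 and held no peak.

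Myc (61985341 to 61990361) was the only protein-coding gene within 100 kb of Pvt1, 47625 bases from its lower end and 48855 bases from the p53 summit. It had no p53 peak. TDG had a peak at the lower end of Myc (61985237 to 61985531), with its summit 23 bases outside the gene, at 6.49-fold with 27 reads (interval 17.8 to 39.3). This was close to the 6.25-fold of the TDG peak in Pvt1, and the intervals of the reads overlapped. On the far side the nearest protein-coding gene was Gsdmc, 1515756 bases away, with no peak. The nearest p53 peak outside Pvt1 lay 12825551 bases from it. Along the Myc and Pvt1 region p53 was thus called once, near the lower end of Pvt1, and TDG at Myc and within Pvt1.

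Over the 3 genes together, 13 protein-coding genes lay within 100 kb. A TDG peak was held by 6 of them, H2az2, Ccm2, Stk38, Srsf3, Cdkn1a and Myc. A p53 peak was held only by Cdkn1a. Over all 21887 protein-coding genes the shares were 14.8% for TDG and 0.292% for p53. The 13 genes are neighbours in 3 places and not independent, and no test was made.

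Gene length can bear on the rule, since a longer gene covers more bases. Among noncoding genes of 150 kb and over, Pvt1, chosen for its p53 peak, was the single one of 137 with a p53 summit (0.730%). In that class 6 held a TDG summit (4.38%). Among those of 30 to 150 kb, 6 of 1723 held a p53 summit (0.348%) and 75 a TDG summit (4.35%). Among those of 3 to 30 kb, the class of Snhg15 and Trp53cor1, 13 of 8499 held a p53 summit (0.153%) and 365 a TDG summit (4.29%). For genes under 3 kb the shares were 0.0705% and 2.65%. The TDG share thus changed little from 3 kb up. Snhg15 lies near the lower limit of its class. These shares count genes with a summit and say nothing about fold.

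The 25 noncoding genes were 24 long noncoding RNA genes and the small nucleolar RNA in Snhg15. They shared 24 p53 peaks, or 19.05% of the list. Of these peaks, 17 were not within 1 kb of a protein-coding gene, the 3 described ones included. The 3 described peaks had a median of 26.2-fold, the other 21 a median of 15.2-fold, with a range from 1.45 to 69.7, and all 126 a median of 13.5-fold. Snhg15 was followed by Gm51651 and Gm41980, which share a peak of 69.7-fold with 265 reads, 40038 bases from Ier5, an early response gene. Gm35347 (44.0-fold, near Itpripl1), 2900052L18Rik (41.7-fold, near Bahcc1), B230206L02Rik (30.4-fold, near Spag9) and Gm34657 (28.6-fold, nearest to Nfe2l2) stood between these and Trp53cor1. Below it, down to the list median, came Gm39039 (25.01-fold), Gm13067 (23.4-fold), Gm31005 (17.9-fold), Gm12522 (17.1-fold), Gm46115 (16.6-fold), Gm29878 (15.2-fold) and Airn (13.5-fold). Airn is the imprinted antisense transcript of Igf2r. Pvt1 came next, just under the median. The lowest folds, 1.51 and 1.45, were a pair of peaks at AY036118, where the local background was 187 and 216 scaled reads.

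**Figure D3:**
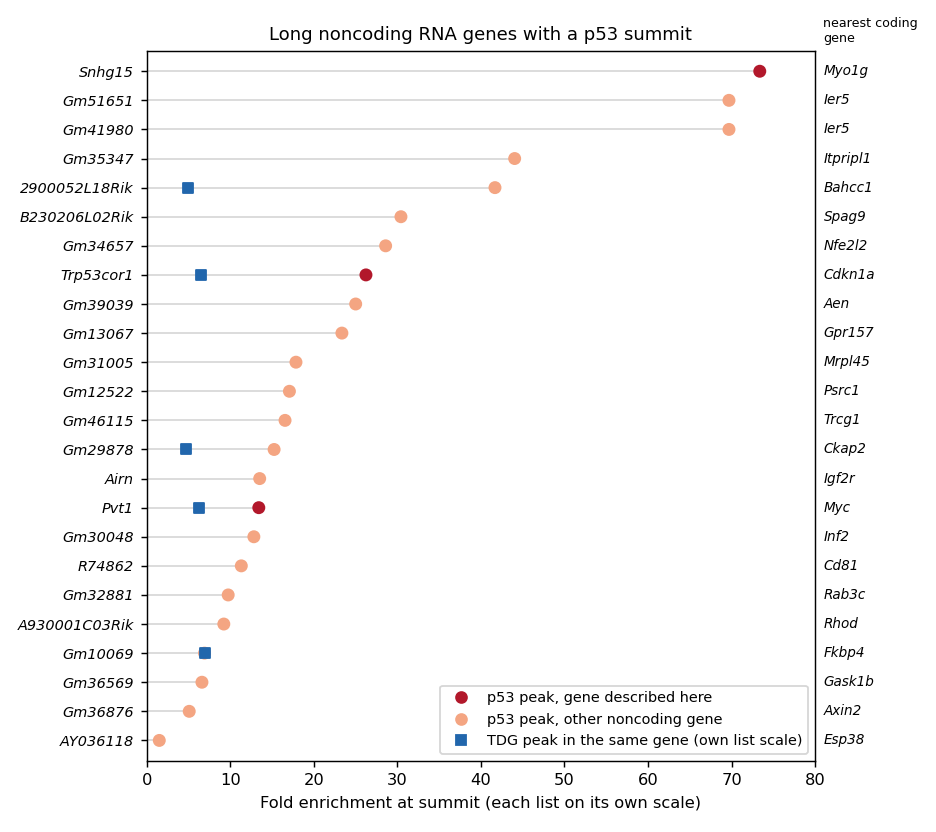
The 24 long noncoding RNA genes with a p53 summit are listed by the fold enrichment of their highest p53 peak, with any TDG peak in the same gene as a blue square on the TDG list's own scale and the nearest protein-coding gene at the right. TDG squares appear for 2900052L18Rik, Trp53cor1, Gm29878, Pvt1 and Gm10069.

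A TDG summit was held by 5 of the 25 genes, namely Trp53cor1, Pvt1, 2900052L18Rik, Gm29878 and Gm10069. The share was 3.63% of all noncoding genes and 4.43% of long noncoding RNA genes. The p53 peak itself overlapped a TDG peak only at Trp53cor1 and 2900052L18Rik, where TDG reached 6.51-fold and 4.95-fold. Pvt1, Gm10069 and Gm29878 held a peak of each list without overlap. The TDG fold was 6.25 in Pvt1, 7.03 in Gm10069 and 4.70 in Gm29878.

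A start was given in the promoter table for 19 of the 25 genes. The p53 summit lay within 300 bases of it in Gm51651 (195 bases), Gm39039 (162 bases) and Gm29878 (19 bases), and 1573 bases from it in Snhg15. The promoters of Gm51651 (chr1:155056274-155056573, plus strand) and Gm39039 (chr7:78895733-78896032, minus strand) are printed because they show the DNA under p53 summits of noncoding genes. The capitals mark the best p53 element without a spacer.

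Gm51651 promoter: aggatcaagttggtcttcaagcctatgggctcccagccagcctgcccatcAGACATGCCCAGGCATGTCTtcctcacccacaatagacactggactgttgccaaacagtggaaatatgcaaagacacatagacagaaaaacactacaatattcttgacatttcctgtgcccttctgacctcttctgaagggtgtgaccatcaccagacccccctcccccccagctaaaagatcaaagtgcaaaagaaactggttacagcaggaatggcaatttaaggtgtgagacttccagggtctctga
Gm39039 promoter: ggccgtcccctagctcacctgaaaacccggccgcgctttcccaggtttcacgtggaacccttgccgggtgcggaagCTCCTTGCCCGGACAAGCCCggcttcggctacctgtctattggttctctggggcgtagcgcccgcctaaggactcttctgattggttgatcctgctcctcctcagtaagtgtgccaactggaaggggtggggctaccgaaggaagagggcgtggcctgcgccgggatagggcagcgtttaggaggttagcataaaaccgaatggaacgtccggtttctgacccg

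In both the p53 summit fell on a base of the capital element, and in the promoter of Gm29878, not printed, on a base of its best element. The element of Gm51651 had no mismatch to the consensus, as in 3 of all 32851 promoters (0.00913%). That of Gm29878 had 2 mismatches and that of Gm39039 had 3, which 0.798% and 6.29% of all promoters reached or bettered. The p53 summit at Gm39039 also lay inside Aen, an apoptosis nuclease gene, and that at Gm29878 lay 190 bases from Ckap2, which encodes a spindle protein. In both pairs the promoter table puts the noncoding and the coding gene on opposite strands. Over the 14 promoters of the table with a p53 summit inside, some of which share a peak, 7 had a match with at most 2 mismatches. Snhg15, with 5 mismatches, had no p53 summit in its promoter. That value says nothing about the DNA under its p53 peak, which was not scanned. A match is a description of the letters and not evidence of binding.

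**Figure D4:**
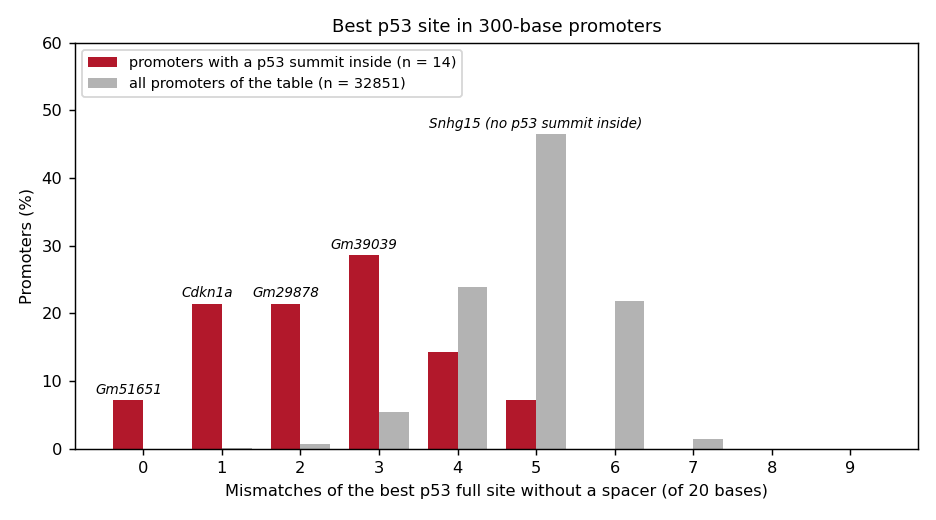
Bars give the percent of 300-base promoters by the number of mismatches of their best p53 element without a spacer, for the 14 promoters with a p53 summit inside (red) and all 32851 promoters (grey). Gm51651, Cdkn1a, Gm29878 and Gm39039 are placed at 0, 1, 2 and 3 mismatches among the red bars, and Snhg15, with no summit in its promoter, at 5. The DNA under the Snhg15 p53 peak was not scanned.

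A wider list of noncoding RNA genes was put together as linked to p53, without a source for each name. Of its 25 names, 23 matched the annotation. A p53 summit was held by 3 of them (13.04%), which were Snhg15, Trp53cor1 and Pvt1 themselves, and a TDG summit by 2 (8.70%), Trp53cor1 and Pvt1. Over all noncoding genes the shares were 0.143% and 3.63%. Both counts come wholly from the 3 genes chosen from these peak lists, so nothing is read from either. The other 20 names had no peak of either list. The list included Neat1, Malat1, Meg3, Gas5, Tug1 and Mir34a, none of which held a peak of either list within 1 kb. Mir34a, a microRNA gene induced by p53, was looked at further after its values were seen. The p53 peak nearest to it lay 19327 bases away, within Gm13067 (chr4:150048923-150049412), at 23.4-fold with 88 reads. This is close to the 26.2-fold of Trp53cor1 and above the 13.4-fold of Pvt1. Its main mature product, with the seed (bases 2 to 8) in capitals, is shown because that seed sets which messages the microRNA pairs with.

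mmu-miR-34a-5p: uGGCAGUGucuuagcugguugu

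All 21 host genes of small nucleolar RNAs listed are long noncoding RNA genes. Snhg15, which was chosen for its p53 peak, was the only one with a p53 summit. The shares were 0.143% of all noncoding genes and 0.189% of long noncoding RNA genes. TDG had peaks in this group at Snhg10 (9.63-fold), Zfas1 (6.51-fold), Dancr (5.47-fold) and Snhg8 (4.95-fold), or 4 of 21 (19.05%), and none at Snhg15. A TDG summit was held by 3.63% of all noncoding genes and 4.43% of long noncoding RNA genes. No gene of this list held both. The 4 TDG summits lay between 150 and 356 bases outside the gene, so they count only through the 1 kb window.

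The p53 folds at the 3 noncoding genes were set beside those of 29 protein-coding p53 target genes. In that list 13 genes held a p53 summit by the 1 kb rule, with a highest fold per gene between 15.2 and 47.6 and a median of 25.01. Snhg15, at 73.4-fold, lay above all 13. Trp53cor1, at 26.2-fold, lay near their middle, between Aen (25.01-fold) and Ccng1 (27.8-fold). Pvt1, at 13.4-fold, lay below all of them, and below Ckap2 (15.2-fold), the lowest. Myc was in this list with a TDG peak and no p53 peak. A TDG summit was held by 14 of the 29, and 5 held both, Cdkn1a, Ccng1, Trp53inp1, Btg2 and Ckap2. The share of all protein-coding genes with both was not counted, so nothing is read from these 5. Over all protein-coding genes 0.292% held a p53 summit and 14.8% a TDG summit.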

How the data were processed

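Chromatin of B16 cells with HA-tagged Tdg was immunoprecipitated with a p53 or an HA antibody, 1 library each, and sonicated DNA was sequenced. The submitters' processing notes list MACS2, ChIPseeker, Bowtie2, Trim Galore, Picard and deepTools, and the build mm10, with no version or role. Peaks were deposited by the authors as 1 narrowPeak list per library. The fold enrichment deposited by the authors is a ratio of summit reads to local background, taken as having 1 added to both. The −log10 p and −log10 q were deposited by the authors for each summit. The score deposited by the authors is 10 times that −log10 q without its decimals. Neither the control library nor the threshold is stated in the labels or files.

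Reads at the summit and the local background were recovered by solving the MACS2 formulas for fold and Poisson p together, a method checked on simulated data. The reads had been scaled by 0.7924 (p53) and 0.924 (TDG), and came out whole within 0.05 for 125 of 126 and 3410 of 3410 peaks. The scale was chosen to give whole reads, and a whole solution was preferred where several existed. The count of whole values is therefore not an independent check. Printed reads are before scaling, and local backgrounds are after it. The median over all peaks was 77 reads for p53 and 24 for TDG. Poisson 95% intervals cover counting error only.

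The genes were those of the RefSeq annotation of GRCm38.p6 on chromosomes 1 to 19, X and Y. "Noncoding" means neither protein-coding nor pseudogene and includes 510 immune receptor gene segments. p53 elements were pairs of the consensus p53 motif (10 bases each), scored by mismatches over 20 bases. The consensus reads the same on both strands. Text values have no spacer. Python 3.11.15, pandas 2.3.3, NumPy 2.4.6, SciPy 1.17.1 and Matplotlib 3.10.9 were used. No test was run. The genes, lists and the rule for named genes (every peak of the 3 genes, coding genes within 100 kb, noncoding genes at or above the list median, list members with a peak) were chosen with earlier results of these data known.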

Additional observations from a re-analysis of the deposited data

How the results depend on the processing

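Of 46 alternatives, 36 left the value within 1.5 times the one reported. TDG peaks at the 3 genes numbered 2, 4 with a 10 kb window, which takes in the pair beyond Trp53cor1, and 0 at a −log10 q of at least 10. The overlap at Trp53cor1 went with them at that limit (0 in place of 1). The 3 p53 peaks stayed under each window and −log10 q limit, and fell to 2 at or above the median fold, where Pvt1 dropped out. The share of noncoding genes with a p53 peak (0.143%) became 0.315% with a 10 kb window and 0.0917% at or above the median fold. That for TDG (3.63%) became 2.07% without a window, 7.09% with 10 kb, 1.27% at a −log10 q of at least 10 and 1.81% at or above the median fold. By −log10 q Snhg15 took place 2. Leaving out immune receptor segments or peaks of high local background, chosen after seeing the data, kept the shares within 1.5 times. No paired analysis was possible because each group has 1 library and no replicate numbers. With 23 and 24 reads at the summit, the TDG peaks of Pvt1 and Trp53cor1 cannot be ranked against each other.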
